A study of Sus scrofa with 12 samples.

Results

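The slow fiber contractile genes encode the myosin, troponin, tropomyosin and calcium pump isoforms of slow-twitch skeletal muscle fibers. The set lists 10 genes, MYH7, MYH7B, MYH6, TNNT1, TNNI1, TNNC1, MYL2, MYL3, TPM3 and ATP2A2, listed by name, with no threshold on a measured value. Of these, 9 were placed by symbol among the 19550 protein-coding genes that RefSeq annotates on Sscrofa11.1, and MYH6 was not analysed here because its symbol could not be placed. A peak interval belonged to a gene when its midpoint lay in the gene body or within 10 kb of it, which took 147 of the 217213 rows of the deposited peak table. A peak found in both breeds is listed more than once, and after such overlapping intervals were merged the 9 genes held 87 of 140081 regions.

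In a muscle fiber, myosin heavy chains pull on actin and the light chains bound to them tune the force and speed of the stroke. Troponin and tropomyosin sit on the thin filament and open it to myosin when calcium arrives, and the calcium pump of the sarcoplasmic reticulum ends the contraction. Slow oxidative fibers and fast glycolytic fibers use different isoforms of each part. The longissimus dorsi is a mainly fast muscle in which slow fibers are a minority, and several slow isoforms are also the isoforms of the heart.

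Accessible chromatin was measured by ATAC-seq, in which a transposase cuts open DNA so that reads collect at open regions. The longissimus dorsi muscle was taken from 3 Luchuan boars, an obese Chinese breed, and 3 Duroc boars, a lean breed. All 6 were male, untreated, 180 days old and reared under the same feeding. The matching RNA-seq libraries were not analysed here. Each region carried 1 read count per breed, with no separate value for a boar, so no value below has a spread between animals and no test between breeds was possible.

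All regions together held 20759996 Duroc and 13745993 Luchuan reads, with medians of 61 and 38 reads per region. Luchuan counts were multiplied by 1.48, the median Duroc to Luchuan ratio over the regions found in both breeds, and are called scaled below. Differences are log2 ratios of scaled Luchuan to Duroc reads with 1 added to both, so that values under 0 mean more Duroc reads. The 95% intervals were derived by the exact Clopper-Pearson method from the share of reads that came from Luchuan. They cover counting error only and not the spread between boars. PCR copies cannot be separated from independent molecules in these counts. If copies were left in, the intervals are too narrow even for counting error. A region or gene was called different when it was at least 2-fold apart and its interval did not include 0. As a check of the tissue, the regions of the skeletal muscle genes CKM and ACTA1 held 965 and 961 Duroc reads per kb of region, against 417 over all regions. The 6 skeletal muscle markers together held 831, against 445 for fat, 313 for smooth muscle, 286 for connective tissue, 226 for immune and 215 for endothelial markers, and single genes of other cells were higher, such as CIDEC of fat at 647.

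Accessibility at most slow genes was lower in Luchuan than in Duroc. Summed over all 87 regions, the genes held 21709 Duroc reads and 12087 Luchuan reads, a log2 ratio of -0.28 (95% interval, -0.31 to -0.25). Of the 9 genes, 8 had a ratio under 0, and the median of the 9 was -0.27. Over all 16986 protein-coding genes with a region, the median was 0.00 and 50.2% were under 0. For 7 slow genes the interval lay wholly under 0, which was true of 24.7% of all genes. For MYH7B it lay wholly above 0, as for 23.2% of all genes. These shares were not matched for reads per gene. One gene, MYL2, was called different, with more Duroc reads, against 0.865% of all genes in that direction, and none was called in the direction of Luchuan, against 2.35%. In bulk muscle, fewer slow fibers and less open chromatin per slow fiber cannot be told apart.

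**Figure D1:**
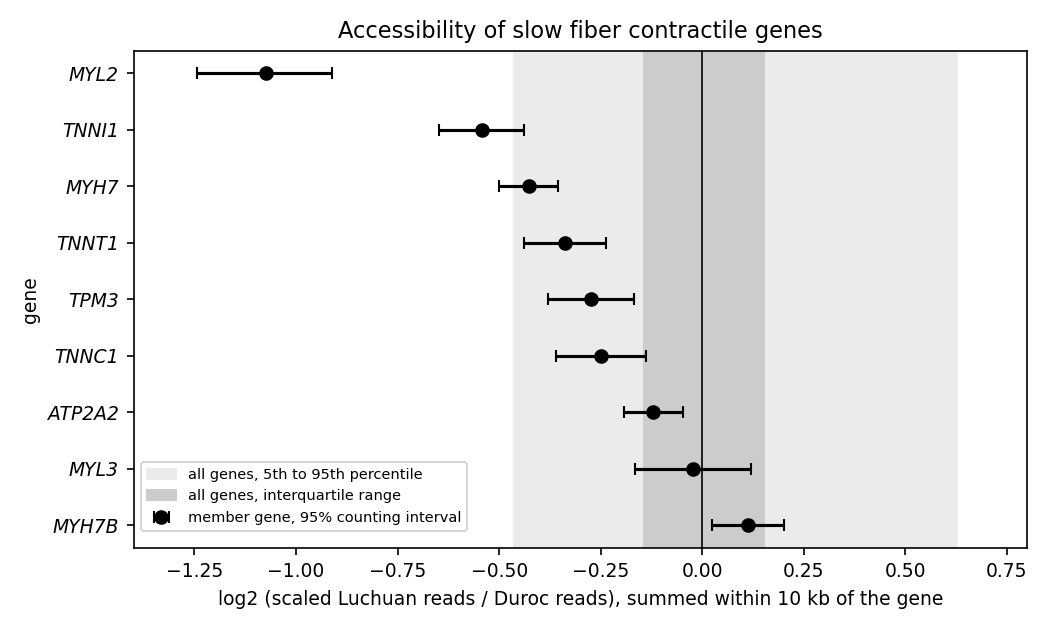
Each point is the log2 ratio of scaled Luchuan to Duroc reads summed over the regions within 10 kb of a gene (x axis), with its 95% counting interval, for the 9 genes on the y axis. The gray bands show the interquartile range and the 5th to 95th percentiles of all protein-coding genes. MYL2 at -1.08 and TNNI1 at -0.54 lie outside the wider band, and MYH7B at 0.11 is the only one above 0.

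The 9 genes formed a graded series from MYL2 at -1.08 through TNNI1 at -0.54, MYH7 at -0.43, TNNT1 at -0.34, TPM3 at -0.27, TNNC1 at -0.25, ATP2A2 at -0.12 and MYL3 at -0.02 to MYH7B at 0.11, all as log2 ratios. Of the 8 steps between neighbours in this order, the step from MYL2 to TNNI1 was the only one beyond counting error, with a difference of 0.53 (0.34 to 0.73). The other 7 steps lay between 0.03 and 0.14 and their intervals included 0. Among all genes, 0.718% had a lower ratio than MYL2, 3.67% a lower one than TNNI1 and 5.79% a lower one than MYH7. With Luchuan scaled by the clean reads of the libraries instead, the median of all genes moved to -0.20 and every slow gene moved by the same step, so that MYH7B turned to -0.09, MYL3 was at -0.22 (-0.37 to -0.08) and all 9 ratios were under 0. With scaling by the reads in all regions, MYL3 was at 0.0055 (-0.138 to 0.148), so that its direction and its interval depended on the scaling.

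Most regions of these genes shared the direction. The log2 ratio was under 0 for 76 of the 87 regions, which is 87.4%, against 51.3% of all regions, and the median was -0.38 against -0.02. The interval lay wholly under 0 for 37 regions, or 42.5%, against 15.4% of all regions. It lay wholly above 0 for 2 regions, or 2.30%, against 13.6%. These interval shares were not matched for depth. The 87 regions held a median of 198 reads against 99 for all regions, and more reads give narrower intervals. Fewer regions were far apart. Only 5 of the 87, or 5.75%, were called with more Duroc reads, close to the 5.14% of all regions, and 1 region, or 1.15%, was called with more Luchuan reads, against 6.35%. The lean toward Duroc was thus spread over many regions with moderate differences, and the regions called different were 3 at MYL2 and 1 each at TNNT1, TNNI1 and MYL3.

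**Figure D2:**
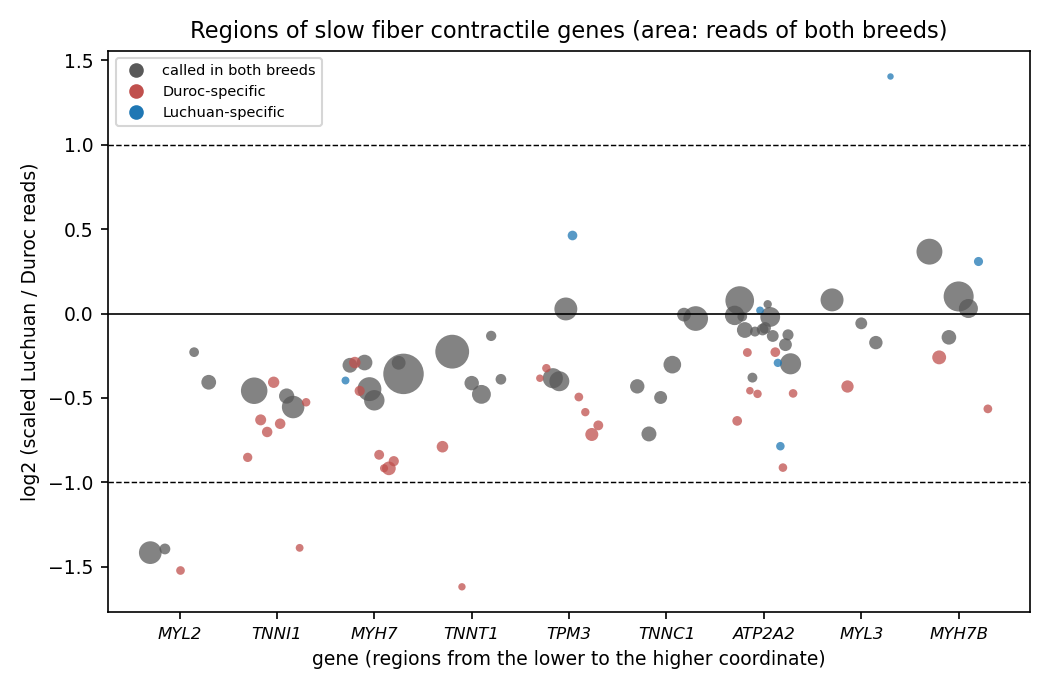
Each circle is 1 of the 87 regions, placed by gene on the x axis and by its log2 ratio of scaled Luchuan to Duroc reads on the y axis, with an area that grows with its reads and a color for the breed or breeds in which it was found. Dashed lines mark 2-fold. The 13 regions of MYH7 and the 10 of TNNI1 all lie under 0, and the 3 lowest circles of MYL2 lie between -1.52 and -1.39.

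The lean was also read within peak classes and depths. Among the 48 regions found in both breeds, 41 were under 0 and the summed log2 ratio was -0.24 (-0.27 to -0.20), whereas 34388 of all 68776 such regions were under 0. The 32 Duroc-specific regions, found as peaks in Duroc only, were all under 0, against 79.0% of all Duroc-specific regions. Their median was -0.61, against -0.38 for that class. The 7 Luchuan-specific regions had a median of 0.02, against 0.76 for all regions of that class. Of these 7, 3 were under 0, against 8.46% of the class. A peak called in 1 breed alone favors a ratio toward that breed, so these classes carry a lean of their own. The slow genes also held fewer Luchuan-specific regions, 8.05% against 19.1%, and somewhat more Duroc-specific ones, 36.8% against 31.8%. Their regions were deeper than most, with a median of 198 reads of both breeds against 99. Among regions in the highest quartile of reads, 29 of 35 at slow genes were under 0, against 53.5% of all regions of that quartile. Their median was -0.30 against -0.02. In the third quartile 29 of 31 were under 0, against 60.2%, and in the second 18 of 20, against 54.3%. The lowest quartile held 1 region of a slow gene, which was above 0.

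The lean was present at the ends of genes, inside them and outside them. The 9 regions that span an end of a slow gene had a summed log2 ratio of -0.28 (-0.36 to -0.20), whereas the 9491 regions that span an end of any protein-coding gene had 0.05. The 40 regions inside slow genes had -0.22 (-0.27 to -0.16), against -0.06 for all regions inside genes. The 38 regions outside had -0.32 (-0.36 to -0.27), against -0.08. These placements differ, since regions of slow genes were placed against the slow gene alone and all regions against any protein-coding gene. Some regions outside a slow gene therefore lie inside or across the end of another gene. The annotation gives no strand, so the start of a gene and its other end were not distinguished, and gene ends are named below by the lower or the higher coordinate.

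MYL2 encodes the regulatory light chain of slow muscle and of the heart ventricle, and lies on chromosome 14 from 32205953 to 32213848. Its 5 regions held 1243 Duroc and 398 Luchuan reads, 2.11-fold more in Duroc after scaling, with a log2 ratio of -1.08 (-1.24 to -0.91). The difference sat at the side of the lower coordinate. Its region of most reads, from 32203278 to 32204575 and 1378 bases outside that end, held 721 Duroc against 182 Luchuan reads, a log2 ratio of -1.42 (-1.66 to -1.18). A second region 973 bases outside had 134 and 34 reads and a ratio of -1.39 (-2.00 to -0.86), and a Duroc-specific region 424 bases inside the gene had 74 and 17 reads and -1.52 (-2.41 to -0.78). All 3 were called different.

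At the other side of MYL2 the breeds were closer. Across the higher coordinate, between 32213573 and 32214148, 234 Duroc and 119 Luchuan reads gave a log2 ratio of -0.41 (-0.74 to -0.08), and its interval did not overlap that of the region with the most reads. For the region from 32211199 to 32211447 inside the gene, with 80 and 46 reads and a ratio of -0.23, the interval of -0.79 to 0.31 included 0. MYL2 lies within the body of CCDC63, so that its 5 regions count toward both genes. With only the gene body and 2 kb on both sides the region with the most reads dropped out and the ratio of MYL2 was -0.70, under 2-fold.

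**Figure D3:**
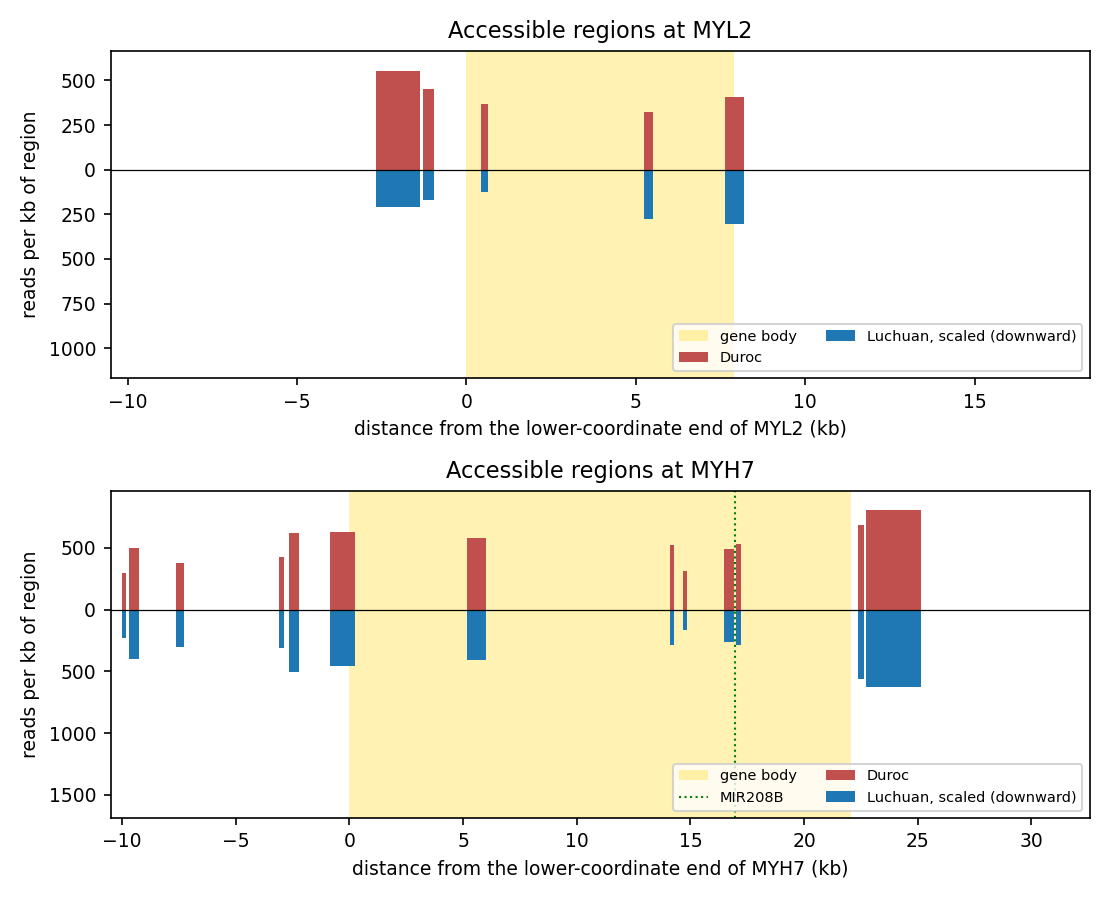
Bars mark the regions at MYL2 (top) and MYH7 (bottom) by distance from the lower-coordinate end of the gene in kb (x axis), with Duroc reads per kb of region upward and scaled Luchuan reads per kb downward (y axis); yellow marks the gene body and the dotted line MIR208B. At MYL2 the Duroc bars exceed the Luchuan bars most at and outside the lower-coordinate end, and at MYH7 the Duroc bar is the longer one in all 13 regions.

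MYL3 encodes the essential light chain of slow muscle and of the ventricle, and lies on chromosome 13 from 29730271 to 29735616. Its 5 regions held 1008 Duroc and 670 Luchuan reads, and the log2 ratio of -0.02 (-0.17 to 0.12) was within counting error of 0, though not with scaling by clean reads. Its region of most reads, 9352 bases outside the lower coordinate and inside the noncoding gene LOC100516643, held 539 Duroc against 385 Luchuan reads. The ratio of that region was 0.08 (-0.11 to 0.27). With the gene body and 2 kb, which leave it out, the ratio of MYL3 was -0.22 (-0.44 to 0.0006). With the gene body alone it was -0.25 (-0.54 to 0.03). A Duroc-specific region inside the gene, from 29733796 to 29734234, had 154 and 77 reads and -0.43 (-0.85 to -0.03), and the region across the higher coordinate had 177 and 106 reads and -0.17 (-0.53 to 0.18). The region called with more Luchuan reads lay 8550 bases beyond that end and was weak, with 10 Duroc and 19 Luchuan reads and a log2 ratio of 1.41 (0.32 to 2.76).

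MYH7 encodes the slow, or beta, myosin heavy chain, the defining motor of slow fibers, and lies on chromosome 7 from 75650841 to 75672908. Its 13 regions held 4538 Duroc and 2279 Luchuan reads, 1.34-fold more in Duroc after scaling, with a log2 ratio of -0.43 (-0.50 to -0.35). All 13 were under 0, between -0.92 and -0.29, and none was called different. The longest region of any slow gene and the one with most reads, from 75673552 to 75675975 and 644 bases beyond the higher coordinate, held 1945 Duroc against 1025 Luchuan reads, a ratio of -0.36 (-0.47 to -0.25). Across the lower coordinate, the region from 75650006 to 75651083 held 673 and 333 reads and had -0.45 (-0.64 to -0.26), and the one nearest the higher coordinate, 288 bases beyond it, had 196 and 108 reads and -0.29 (-0.65 to 0.05).

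Inside MYH7, 4 Duroc-specific regions between 14104 and 17026 bases from the lower coordinate had the lowest ratios of the gene, from -0.92 to -0.84, with intervals wholly under 0. A pair of them enclosed MIR208B, the gene of a microRNA expressed with slow myosin, which spans 80 bases from 75667786 to 75667865 and fills most of the 98 bases between them. The region before it, between 75667323 and 75667768, held 219 Duroc against 78 Luchuan reads, a log2 ratio of -0.92 (-1.31 to -0.54). The region after it, from 75667867 to 75668062, had 104 and 38 reads and -0.87 (-1.46 to -0.34). With the gene body alone, the ratio of MYH7 was -0.69, lower than with its surroundings. The Duroc-specific class itself leaned toward Duroc, with a median of -0.38 over all such regions.

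The next gene after MYH7 in the annotation, 4758 bases away, is LOC100736765, for which the table gives no name. Its regions within 10 kb had a log2 ratio of -0.33 (-0.43 to -0.24). Of its 7 regions, 3 are also counted for MYH7, and the 4 others had 443 Duroc and 271 Luchuan reads and a ratio of -0.14 (-0.37 to 0.08).

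MYH7B encodes a myosin heavy chain related to MYH7 and hosts MIR499, and lies on chromosome 17 from 38362158 to 38385680. It was the one slow gene with more Luchuan reads after scaling, with 2470 Duroc and 1803 Luchuan reads in 7 regions and a log2 ratio of 0.11 (0.02 to 0.20). The only region whose interval did not include 0 lay outside the gene. From 38352065 to 38353090, 9068 bases outside the lower coordinate and inside the long noncoding RNA gene LOC106506661, 635 Duroc and 553 Luchuan reads gave a ratio of 0.37 (0.20 to 0.53). With the gene body and 2 kb the ratio of MYH7B was 0.02 (-0.09 to 0.13).

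The MYH7B region of most reads, between 38363976 and 38365006 inside the gene, held 936 Duroc against 678 Luchuan reads, a log2 ratio of 0.10 (-0.04 to 0.25). A Duroc-specific region across the lower coordinate had 197 and 111 reads and -0.26 (-0.61 to 0.08), and the region nearest the higher coordinate, 4510 bases inside it, had 367 and 253 reads and 0.03 (-0.21 to 0.27). The lowest ratio, -0.56 (-1.26 to 0.08), came from a Duroc-specific region with 64 and 29 reads in the body of TRPC4AP. MIR499 lay 6361 bases from the nearest region.

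TNNT1 encodes slow troponin T, which anchors troponin to tropomyosin, and lies on chromosome 6 from 59351445 to 59365584. Its 7 regions, all under 0, held 2323 Duroc and 1241 Luchuan reads, with a log2 ratio of -0.34 (-0.44 to -0.24). Most of the reads came from a region 3085 bases outside the lower coordinate, between 59346852 and 59348360, with 1306 Duroc and 754 Luchuan reads and a ratio of -0.23 (-0.36 to -0.10). The region across the higher coordinate had 409 and 198 reads and -0.48 (-0.73 to -0.23). A Duroc-specific region inside the gene, from 59360016 to 59360203, was called different on few reads, with 43 Duroc and 9 Luchuan reads and -1.62 (-2.91 to -0.63). The gene body alone gave -0.56. Of the 7 regions, 2 have their midpoint in the body of TNNI3, the troponin I gene of the heart, and 1 in that of PPP1R12C. The region with the most reads also reaches across the higher-coordinate end of PPP1R12C, at 59347177.

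TNNI1 encodes slow troponin I, which holds the thin filament closed without calcium, and lies on chromosome 10 from 23788279 to 23800554. Its 10 regions, all under 0, held 2357 Duroc and 1092 Luchuan reads, 1.46-fold more in Duroc after scaling, with a log2 ratio of -0.54 (-0.65 to -0.44). For 8 of them the interval lay wholly under 0. Its region of most reads, from 23785048 to 23786466 and 1813 bases outside the lower coordinate, held 836 Duroc against 411 Luchuan reads, a ratio of -0.46 (-0.63 to -0.29). The region across the higher coordinate, from 23799992 to 23801137, had 607 and 279 reads and -0.55 (-0.76 to -0.35), and the one nearest the lower coordinate, 53 bases outside it, had 110 and 47 reads and -0.65 (-1.18 to -0.15). A Duroc-specific region of 52 and 13 reads, 597 bases beyond the higher coordinate, was called different at -1.39 (-2.43 to -0.54). Regions found only in Duroc made up 7 of the 10.

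TNNC1 encodes the troponin C shared by slow fibers and the heart, which binds the calcium, and lies on chromosome 13 from 34591571 to 34594320. Its 6 regions, all found in both breeds and all under 0, held 1823 Duroc and 1036 Luchuan reads, with a log2 ratio of -0.25 (-0.36 to -0.14). The ratio differed along the gene. The region from 34587320 to 34587837, 3734 bases outside the lower coordinate, held 258 Duroc against 106 Luchuan reads and had -0.71 (-1.06 to -0.38). The one nearest that end, 915 bases outside it, had 176 and 84 reads and -0.50 (-0.89 to -0.12). At the higher coordinate, a region with 180 and 121 reads had -0.01 (-0.35 to 0.33), and the region with the most reads, 946 bases beyond it, had 647 and 428 reads and -0.03 (-0.21 to 0.15). The region with the most reads also spans the lower-coordinate end of the neighbouring gene NISCH, at 34595788.

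TPM3 encodes the slow isoform of tropomyosin in muscle and other isoforms elsewhere, and lies on chromosome 4 from 95542329 to 95572946. Its 10 regions held 2011 Duroc and 1123 Luchuan reads, with a log2 ratio of -0.27 (-0.38 to -0.17), and 8 were under 0. The difference was at the lower coordinate and in the later part of the gene. Across the lower coordinate, the region from 95542182 to 95542905 held 454 Duroc against 232 Luchuan reads, a ratio of -0.40 (-0.64 to -0.17). A Duroc-specific region 25368 bases from that end had 188 and 77 reads and -0.72 (-1.12 to -0.33), the lowest of the gene, and another, 1316 bases beyond the higher coordinate, had 92 and 39 reads and -0.66 (-1.25 to -0.12). In between, the region of most reads, between 95549364 and 95550198, had 545 and 375 reads and 0.03 (-0.17 to 0.22). A Luchuan-specific region beside it had 64 and 60 reads and a ratio of 0.47, with an interval that included 0.

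ATP2A2 encodes the calcium pump of slow and cardiac muscle and an isoform of it used by most other cells, and lies on chromosome 14 from 31674659 to 31744981. It was the longest of the genes, and its 24 regions held 3936 Duroc and 2445 Luchuan reads, with a log2 ratio of -0.12 (-0.19 to -0.05). The region across the lower coordinate, between 31673974 and 31675159, held most reads, with 855 Duroc and 609 Luchuan reads and a ratio of 0.08 (-0.08 to 0.23). For 20 of the 24 regions the interval included 0. The 4 others were under 0, among them the region from 31746579 to 31747407, 1598 bases beyond the higher coordinate, with 499 and 274 reads and -0.30 (-0.52 to -0.08). The region nearest the higher coordinate from inside, 2022 bases from it, had 110 and 68 reads and -0.13 (-0.59 to 0.32). The lowest ratio was -0.91 (-1.69 to -0.23), in a Duroc-specific region with 65 and 23 reads.

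The surroundings of the genes were read in the same way, as an addition made after the counts had been seen. Regions over 10 kb and up to 100 kb outside MYL2 had a log2 ratio of -0.24 (-0.36 to -0.12), against -1.08 at the gene. Those around MYH7 had -0.03 (-0.10 to 0.04), against -0.43, and those around TNNI1 had -0.18 (-0.31 to -0.05), against -0.54. In these 3 the interval of the gene lay wholly under that of its surroundings. MYH7B lay above its surroundings, at 0.11 against -0.10 (-0.18 to -0.03). The intervals of the other 5 genes overlapped those of their surroundings. For TNNC1 and TPM3, with surroundings at -0.28 and -0.24, the ratio of the gene was close to that of the chromosome around it.

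Levels were compared between genes as reads per kb of region. In Duroc, MYH7B had the highest level of the slow genes at 647, followed by TNNT1 at 635, MYH7 at 627, TNNC1 at 617, TNNI1 at 522, TPM3 at 478, MYL2 at 474, MYL3 at 447 and ATP2A2 at 446. In Luchuan, after scaling, MYH7B was again highest at 700.0 and MYL2 was lowest at 225. MYL2 thus had about the level of TPM3 in Duroc, and in Luchuan TPM3 was at 395. As a group the slow genes held 542 Duroc reads per kb, against 891 for 12 fast counterparts and 417 over all regions.

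**Figure D4:**
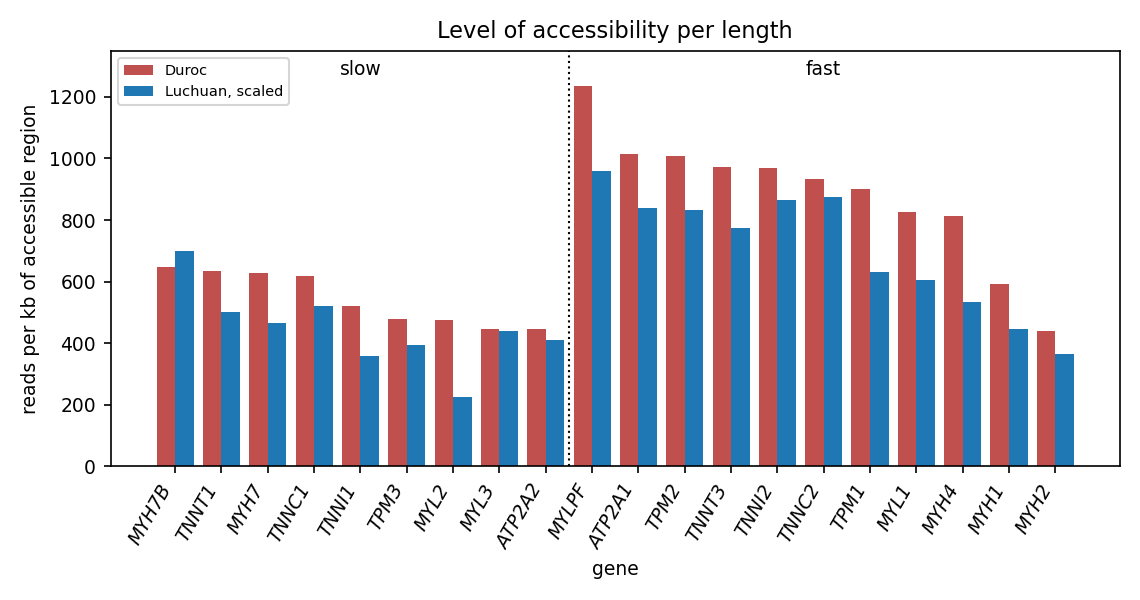
Bars give the reads per kb of accessible region (y axis) within 10 kb of each gene (x axis), in Duroc and in Luchuan after scaling, with 1 value per breed and no spread between boars. The slow genes are to the left of the dotted line and lie between 446 and 647 in Duroc, and MYLPF, at 1235, is the highest of the fast genes to its right.

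The fast counterparts leaned toward Duroc too. Of 16 listed fast genes, 12 were placed, and all 12 had a log2 ratio under 0, against 50.2% of all genes. All 12 intervals lay wholly under 0, against 24.7% of all genes. These shares were not matched for reads, and the fast regions held a median of 359 reads against 99 for all regions. The median ratio of the 12 was -0.35, from -0.61 for MYH4 to -0.09 for TNNC2. Of their 167 regions, 22, or 13.2%, were called with more Duroc reads, against 5.14% of all regions. None was called with more Luchuan reads, against 6.35%. Of the 22, 11 were at MYH4, the fastest myosin heavy chain. A lower signal in Luchuan was thus shared by slow and fast genes, of which MYH1, MYH2 and MYH4 are neighbours with overlapping windows.

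Slow genes were set beside the gene of the same role on the fast list in 11 pairs. That list was set by name, and whether each of its genes, such as TPM2, is confined to fast fibers was not tested. The difference of the 2 log2 ratios does not depend on the scaling of Luchuan, but pairs that share a gene or neighbouring fast genes are not independent. All pair values used the 10 kb window, and the ratio of MYL3, for one, was lower in narrower windows. MYL2 was lower than MYLPF, the fast regulatory light chain, by a difference of -0.71 (-0.89 to -0.54), and TNNI1 was lower than TNNI2 by -0.38 (-0.51 to -0.26). In the troponin C pair TNNC1 was lower than TNNC2 by -0.16 (-0.28 to -0.03), and MYH7 was lower than MYH2 by -0.16 (-0.28 to -0.04). The order was the opposite for the essential light chains, with MYL3 above MYL1 by 0.43 (0.27 to 0.58), for TPM3 above TPM1 by 0.24 (0.12 to 0.36), for MYH7 above MYH4 by 0.19 (0.10 to 0.27) and for ATP2A2 above ATP2A1 by 0.15 (0.06 to 0.24).

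Another 3 pairs differed by less than counting error. These were TNNT1 and TNNT3 at -0.01 (-0.12 to 0.10), TPM3 and TPM2 at 0.00 (-0.12 to 0.13), and MYH7 and MYH1 at -0.02 (-0.12 to 0.08). Slow genes were thus lower than their fast partner in 4 pairs and higher in 4, with no single direction between the slow and the fast isoforms. In 9 of the 11 pairs the fast gene had more reads per kb in both breeds, from 1.30 times as many for MYH4 against MYH7 to 2.60 times as many for MYLPF against MYL2 in Duroc. In Luchuan the last of these was 4.27 times.

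**Figure D5:**
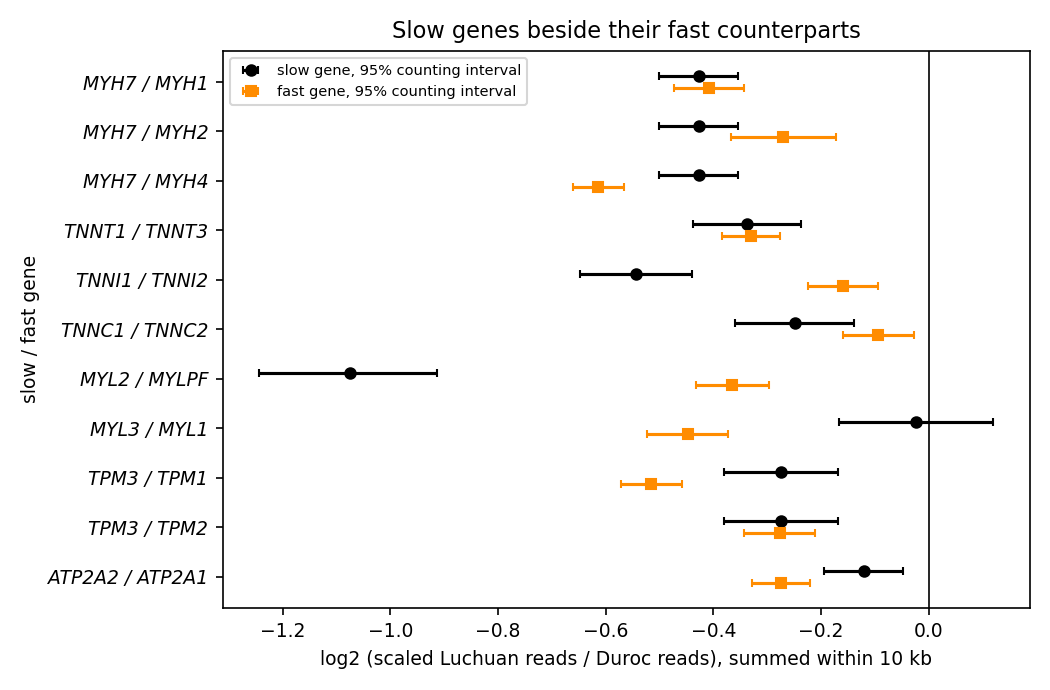
For each pair of a slow gene and the gene of the same role on the fast list (y axis), points give log2 ratios with 95% counting intervals. The x axis is the log2 ratio of scaled Luchuan to Duroc reads within 10 kb. MYL2 at -1.08 is far from MYLPF at -0.36, whereas MYL3 at -0.02 lies to the right of MYL1 at -0.45, and all the fast genes lie under 0.

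Other genes of the slow fiber program were closer to 0. Of 12 listed, 10 were placed, 8 had a log2 ratio under 0, and the median was -0.09, from -0.38 for SMPX, a small muscle protein of the X chromosome, to 0.06 for PLN, the inhibitor of the pump that ATP2A2 encodes. The interval lay wholly under 0 for 4 and wholly above 0 for none, against 24.7% and 23.2% of all genes. Of 141 regions, 2 at MYBPC1 were called with more Duroc reads and 1 at CASQ2 with more Luchuan reads, which is 1.42% and 0.709%, under the 5.14% and 6.35% of all regions. Among 20 regulators of fiber type the directions were mixed, with 11 of the 20 intervals wholly under 0 and 6 wholly above, against the same 24.7% and 23.2% of all genes, a median of -0.06, and a range from -0.79 for MEF2A to 0.70 for ESRRG. Their 818 regions held 42 called with more Duroc reads and 37 with more Luchuan reads, which is 5.13% and 4.52%, so that the first share was that of all regions and the second was lower.

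Marker genes of other cell types had mixed directions. Of 4 endothelial genes 2 were under 0, with a summed log2 ratio of 0.10 (-0.07 to 0.26) but a median of 0.37, and KDR at 0.73 (0.23 to 1.26) and TEK at 0.79 (0.34 to 1.26) had more Luchuan reads after scaling. Of 4 smooth muscle genes 2 were under 0, with a sum of 0.18 (0.09 to 0.27) and a range from -0.51 for TAGLN to 0.64 for ACTA2. Among 4 fat genes only LEP, at -0.93, was under 0, with a sum of 0.03 (-0.07 to 0.13) and a median of 0.10, and FABP4 had no region. Connective tissue genes, with 2 of 3 under 0, summed to -0.03 (-0.16 to 0.10), and immune genes, with 1 of 3 under 0, to 0.03 (-0.18 to 0.24). PAX7 of satellite cells was at -0.21 (-0.30 to -0.12). Of 7 heart genes, which include TNNI3 beside TNNT1, 5 were under 0, with a sum of -0.14 (-0.22 to -0.06).

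The skeletal muscle markers leaned toward Duroc less evenly than the slow genes. Of the 6, which include MYH1 and MYH4 of the fast list, 5 were under 0, with a median of -0.25. CKM, MYH1 and MYH4 were at -0.46, -0.41 and -0.61, whereas ACTA1 was at -0.09 and DES at -0.04 (-0.10 to 0.03). The sum of the 6, -0.10 (-0.11 to -0.08), was carried by TTN. TTN held 50339 of the 80021 Duroc reads and was at 0.04. Without TTN, a setting chosen after seeing the data, the sum was -0.36 (-0.38 to -0.33). The part of cell composition in the ratios of the slow genes was not tested.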

How the data were processed

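ATAC-seq reads of 3 Luchuan and 3 Duroc boars were, per the labels and the methods of the study, filtered with Trimmomatic (version 0.36), aligned to Sscrofa11.1, the assembly of a Duroc pig, with Bowtie2, and peaks were detected with MACS2. The values deposited by the authors are read counts of each peak interval, 1 per breed and not scaled for depth, which were read as pooled over the boars. This reading was not tested. The handling of duplicates is not given in the sources used here. The authors' columns of rescaled log2 fold change, mean signal and p-value were not used. Starts were counted from 0 in the table and are given counted from 1.

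Overlapping or adjoining intervals found in both breeds were merged, and the longest interval stood for the region. Genes came from the RefSeq table of Sscrofa11.1, without strand or exons. Intervals of a difference between 2 genes are normal approximations on the log odds ratio. With 1 count per breed no test between breeds was run. The region calls were tested on simulated data. The named genes are the 10 listed, and within each the region with the most reads, those nearest both ends, those called and those with the largest ratio either way among regions of 50 or more reads; from other lists, the called regions and the extreme genes. The members and lists were chosen with earlier results of these data known. The work was done in Python 3.11.15 with pandas 2.3.3, SciPy 1.17.1, NumPy 2.4.6 Matplotlib 3.10.9 and statsmodels 0.14.6.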

Additional observations from a re-analysis of the deposited data

How the results depend on the processing

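Each region holds 1 pooled count per breed, so the spread between boars is unknown and depth limits calls in weak regions. The boars of the breeds were different animals with no pairing given, so no paired analysis applied. No replicate could be left out because the counts carry none. The summed log2 ratio of the slow genes, -0.28, stayed under 0 in all settings tried. It was -0.48 with scaling by clean reads, -0.23 in gene bodies alone, -0.23 without regions in other coding genes, where MYL2 keeps none, -0.24 with every row counted, -0.24 with regions found in both breeds only, and from -0.34 without MYH7B to -0.24 without MYH7. With only the intervals of the Luchuan peak calls, which include those also found in Duroc, it was -0.16. This setting was chosen after seeing the data. With scaling by clean reads MYH7B reversed to -0.088 (-0.176 to 0.0001). The cause was not tested.

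The 5 regions called with more Duroc reads became 11 with scaling by clean reads, 20 at 1.5-fold and 8 with every row counted. The count was 3 with only the intervals of the Luchuan peak calls and 2 in gene bodies alone. It was also 2 without regions in other coding genes, with regions found in both breeds only, or with at least 100 reads. The 1 region called with more Luchuan reads became 0 with the gene body and 2 kb, with the gene body alone and with regions found in both breeds only. The count was also 0 with at least 100 reads and with only the intervals of the Duroc peak calls. The settings with at least 100 reads or with the intervals of 1 breed were chosen after seeing the data.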

Other observations

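Protein-coding genes beside the slow genes were read without the regions they share with a slow gene, an addition made after the counts had been seen. Of 10 such neighbours with regions of their own, 8 had a log2 ratio of scaled Luchuan to Duroc reads under 0, against 50.2% of all genes. Their median was -0.21, against 0.00, and 5 had a 95% counting interval wholly under 0, against 24.7% of all genes. The shares of all genes used every region within 10 kb and were not matched to these smaller sums. The 5 were NISCH beside TNNC1 at -0.59 (-0.82 to -0.38), NUP210L beside TPM3 at -0.43 (-0.61 to -0.26), PPP1R12C beside TNNT1 at -0.41 (-0.57 to -0.25), TNNI3 beside TNNT1 at -0.22 (-0.40 to -0.03) and TRPC4AP beside MYH7B at -0.21 (-0.35 to -0.08). The value of TNNI3 came from 1 region. CCDC63, whose body holds MYL2, was at -0.06 (-0.19 to 0.07) in its 10 regions outside the window of MYL2, and ANAPC7 beside ATP2A2 was at 0.04 (-0.17 to 0.24).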
